A study of Mus musculus with 18 samples.

Results

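The genes described here are 10 genes of bone morphogenetic protein (BMP) signalling that are also linked to the resting state of hair follicle stem cells: the ligands Bmp2, Bmp4 and Bmp6, the secreted antagonists Fst and Nog, the receptor Bmpr1a, the inhibitory Smad gene Smad7 and the target genes Id1, Id2 and Id3. They were taken by gene symbol from a table of 23951 genes, all 10 were found, and all 10 were among the 12751 genes that were tested because they reached 1 FPKM or more in at least 3 libraries. Bmp6 reached it in 10 and Nog in 12 of the 18 libraries, including every HF-SC Co library, so both entered the test through the groups where they were high. FPKM, fragments per kilobase of transcript scaled to the depth of the library, is a level per transcript length, so levels of different genes can be set side by side on it.

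The 18 RNA-seq libraries came from the ear skin of mice induced with tamoxifen at 8 weeks of age, taken at day 7 after induction, and from 6 sorted populations, with 3 mice in each. DKO*-mT/mG mice carried floxed JunB and c-Jun alleles (JunB f/f, c-Jun f/f), the inducible recombinase K5-Cre-ERT, which is active where the keratin 5 promoter is, and the mT/mG reporter, and they had psoriasis-like skin. Deletion was mosaic, so the GFP fraction held recombined, mutant cells and the Tomato (Tom) fraction held cells without recombination of the reporter, from the same skin. Co-mT/mG controls carried the same Cre and reporter, their c-Jun and JunB genes were wild-type or heterozygous, and the labels give no colour for their libraries. Within the CD45-, CD49f-high epidermal cells, the CD34+ cells are called hair follicle stem cells (HF-SCs) and the CD34- cells basal keratinocytes (b-KCs). Co mice 810, 825 and 828 each gave HF-SC Co and b-KC Co libraries, and DKO* mice 814, 815 and 817 each gave libraries of all 4 DKO* populations (both colours of both cell types).

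The deleted genes were lowest in the GFP fraction, as the labels have it. Jun was at 835 to 1086 FPKM in HF-SC Co, 308 to 614 in HF-SC Tom and 30.4 to 88.4 in HF-SC GFP, and at 876 to 1000, 163 to 400 and 29.6 to 65.4 in b-KC Co, Tom and GFP, so the Tom fraction lay between Co and GFP. Junb was at 436 to 463, 251 to 402 and 38.6 to 77.5 FPKM in HF-SC Co, Tom and GFP, and at 737 to 772, 208 to 397 and 37.2 to 72.2 in the same order of b-KCs. The depth implied by the smallest steps of the values was 16575000 to 26395000 reads per library. CD34 is also found on endothelial cells and fibroblasts, and 16 endothelial marker genes summed to 971 to 2899 FPKM in HF-SC Tom, 106 to 171 in HF-SC Co, 5.63 to 54.0 in HF-SC GFP and 2.83 to 13.9 in the 9 b-KC libraries. Summed fibroblast markers were at 13.9 to 121 FPKM in HF-SCs and 1.67 to 6.24 in b-KCs, leukocyte markers at 1.98 to 2.52 in HF-SC Co and 4.51 to 22.0 in the DKO* HF-SC libraries, melanocyte and Schwann cell markers at 16.4 or below and mural markers at 1.48 or below in every library, and their part in the differences below was not tested. The bulge marker Krt15 was listed at 0 in the HF-SC Co library of mouse 828, and the basal keratin Krt14 was listed at 0 in 3 b-KC libraries of DKO* mice (GFP 817, Tom 814 and Tom 817), while none of the 10 BMP genes was listed at 0 in any library. In bulk libraries such as these, fewer cells of a type and less RNA per cell cannot be told apart.

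BMP ligands bind pairs of type I and type II receptors, which phosphorylate Smad1, Smad5 and Smad9, and these enter the nucleus with Smad4 and switch on targets, of which the Id genes are the best known. Secreted antagonists such as noggin and follistatin bind ligands outside the cell and keep them from their receptors, and inhibitory Smads such as Smad7 act inside it. In the hair follicle, BMP signals hold bulge stem cells in quiescence, and a drop in BMP signalling accompanies the start of a new growth phase.

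Upstream sequences are shown for Id2, Id3 and Bmp6, since these 3 genes were lower in both DKO* HF-SC fractions and have an entry in the RefSeq promoter table (GRCm38.p6), which held 5 of the 10 genes (also Bmp4 and Bmpr1a). The table held no entry for Bmp2, Id1, Smad7, Fst or Nog. Each line gives the 250 bases before the gene's start, 5′ to 3′ on the gene's strand, for Id2 at chr12:25096093-25096342 (minus strand), Id3 at chr4:136143572-136143821 (plus strand) and Bmp6 at chr13:38345466-38345715 (plus strand). Capitals mark the GC-rich Smad motif GGCGCC and the Smad binding element CAGAC or its reverse complement GTCTG.
Id2: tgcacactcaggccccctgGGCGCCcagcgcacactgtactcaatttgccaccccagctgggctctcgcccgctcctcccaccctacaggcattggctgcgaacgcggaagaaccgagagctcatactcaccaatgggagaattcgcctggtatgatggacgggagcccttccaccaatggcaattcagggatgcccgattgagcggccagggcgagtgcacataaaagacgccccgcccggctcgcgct
Id3: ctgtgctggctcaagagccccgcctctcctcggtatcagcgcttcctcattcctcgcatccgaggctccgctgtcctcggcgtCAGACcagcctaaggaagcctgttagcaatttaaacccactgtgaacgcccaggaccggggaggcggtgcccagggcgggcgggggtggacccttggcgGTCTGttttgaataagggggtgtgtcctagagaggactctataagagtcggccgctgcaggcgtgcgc
Bmp6: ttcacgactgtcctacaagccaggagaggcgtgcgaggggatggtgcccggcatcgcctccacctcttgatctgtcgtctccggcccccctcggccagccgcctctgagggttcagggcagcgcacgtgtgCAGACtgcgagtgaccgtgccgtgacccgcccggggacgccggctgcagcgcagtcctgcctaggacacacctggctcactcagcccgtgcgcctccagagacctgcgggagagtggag

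Searched on both strands, the Id3 window held CAGAC at 167 and 68 bases upstream of the start, the Bmp6 window held it at 119 bases, and the Id2 window held GGCGCC at 231 bases. Of 32851 promoter windows of the same length, 42.2% held CAGAC and 9.59% held GGCGCC, so these are common letters in this collection. The AP-1 motif TGANTCA, the type of site that Jun proteins bind, was present in 6.75% of all windows and in none of the 5 windows of these genes. The longer BMP response element was present in 0.277% of all windows and in none of the 5. The matches are a description of the letters in these windows only. The table's build differs from the NCBI37 (mm9) build to which the reads were aligned, and gene positions below are those of the NCBI37 annotation.

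In control skin, the stem cells and the basal keratinocytes differed in the level of 6 of the 10 genes. The antagonists Nog and Fst, the ligand Bmp6 and the targets Id2 and Id3 were higher in HF-SC Co than in b-KC Co, whereas Bmp4 was lower. With limma on log2(FPKM + 1) and an adjusted p under 0.01 as the criterion, used throughout, 5 of 10 genes passed as higher, against 18.7% of all genes tested, and 1 of 10 passed as lower, against 19.3%. Nog (chr11:89161952-89163873) was at 35.4, 21.9 and 22.7 FPKM in HF-SC Co (mice 810, 825 and 828) and at 1.48, 1.45 and 1.20 in b-KC Co. The groups did not overlap, and the ratio of means was 19.4 (log2 fold change 3.51, SE 0.26, adjusted p = 3.64e-08, limma). Id2 (chr12:25778666-25780957) was at 513, 416 and 481 FPKM in HF-SC Co and at 54.7, 40.2 and 39.7 in b-KC Co, a ratio of 10.5 (log2 3.37, SE 0.27, adjusted p = 6.54e-08). Id2 and Nog thus had the largest differences of the 10 genes between the control populations.

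Bmp6 (chr13:38436995-38592183) was at 8.20, 14.3 and 8.70 FPKM in HF-SC Co and at 1.30, 1.28 and 0.976 in b-KC Co, 8.77 times as high (log2 2.35, SE 0.26, adjusted p = 2.09e-06). Fst (chr13:115242470-115249159), which binds activins more tightly than BMPs, was at 160, 124 and 124 FPKM against 21.8, 25.1 and 24.3, 5.74 times as high (log2 2.46, SE 0.25, adjusted p = 9.68e-07). Id3 (chr4:135699412-135701670) had the highest level of the 10 genes, 812, 604 and 719 FPKM in HF-SC Co against 322, 300 and 279 in b-KC Co (log2 1.23, SE 0.26, adjusted p = 9.42e-04). None of these groups overlapped, although the Id3 call was lost without mouse 810 (adjusted p = 0.0127) or mouse 828 (adjusted p = 0.0152).

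Bmp4 (chr14:47003195-47010344) ran the other way, at 1.93, 2.28 and 1.71 FPKM in HF-SC Co and 9.45, 13.1 and 14.2 in b-KC Co, 6.19 times as high in the keratinocytes (log2 fold change -2.14, SE 0.32, adjusted p = 4.77e-05). Bmp2 (chr2:133377895-133388621) was at 16.5, 18.9 and 16.7 against 20.4, 19.8 and 23.0 FPKM and did not pass (adjusted p = 0.576, 95% interval of the log2 fold change -1.05 to 0.52). Bmpr1a (chr14:35223920-35316527), the type I receptor of the bulge, Id1 (chr2:152561987-152563146) and Smad7 had higher means in HF-SC Co without passing (ratios 1.46, 1.36 and 2.02, adjusted p = 0.063, 0.0829 and 0.0223). The same Co mice gave both populations, and Smad7 passed when the mouse was a random block (adjusted p = 0.00203), as it did with a fixed block (adjusted p = 8.15e-04), where Bmpr1a passed too (adjusted p = 0.00147).

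**Figure D1:**
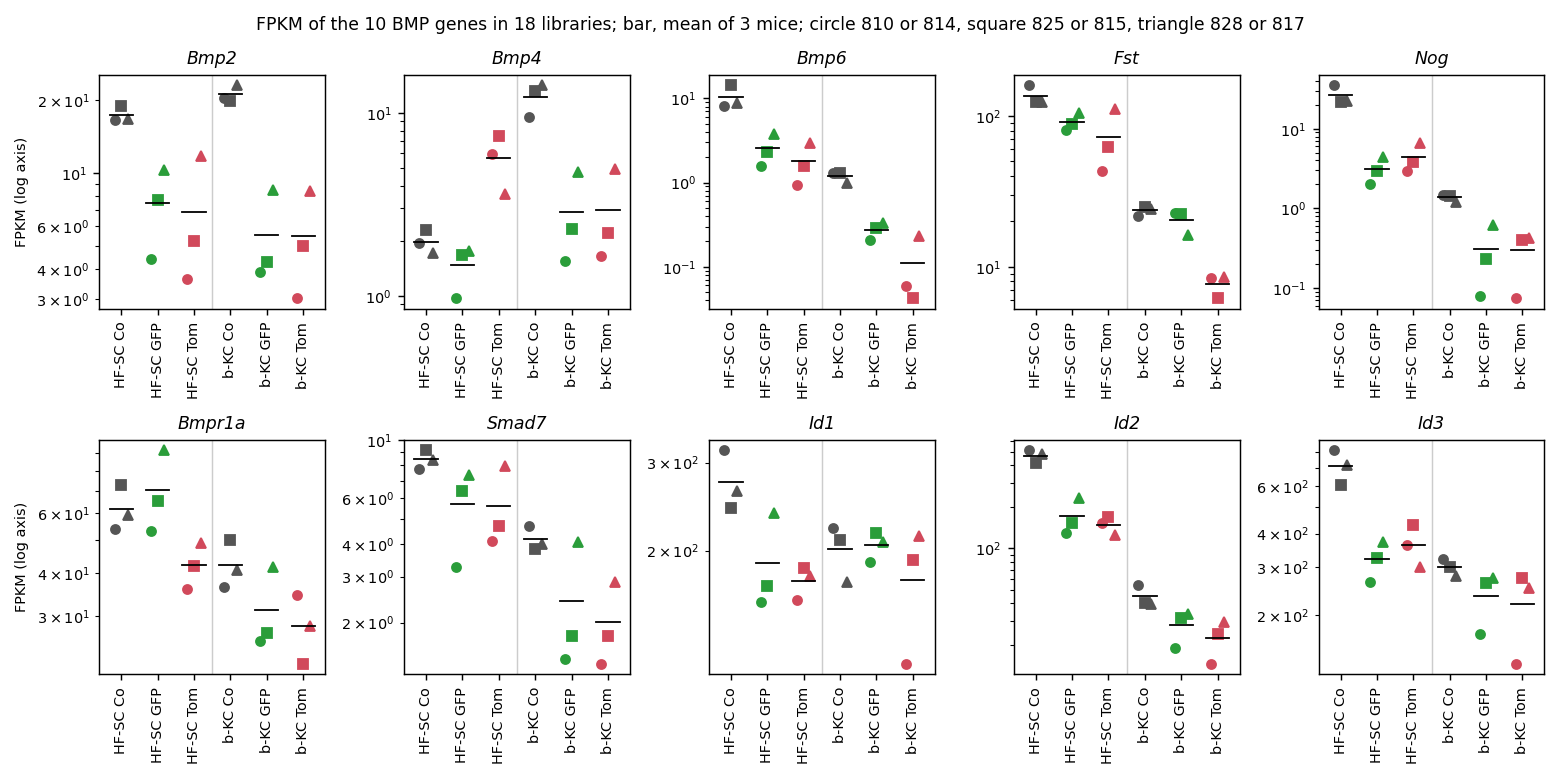
Each panel plots 1 gene's FPKM (log axis) in the 18 libraries by population, with 1 point per mouse and a bar at the mean of 3 mice. Nog, Bmp6, Id2 and Id3 fell from HF-SC Co to both DKO* HF-SC fractions without overlap, Bmp2 and Bmp4 fell in both b-KC fractions, and Bmp4 alone was above HF-SC Co in HF-SC Tom.

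In mutant stem cells (HF-SC GFP) at day 7, the antagonist Nog, the ligand Bmp6 and the targets Id2 and Id3 were lower than in HF-SC Co. That is 4 of 10 genes lower, against 12.3% of all genes tested, and 0 of 10 higher, against 13.0%. The median log2 fold change of the 10 genes was -0.86, and that of all genes tested was -0.05. Nog was at 2.0, 2.93 and 4.40 FPKM in HF-SC GFP (mice 814, 815 and 817), against 21.9 to 35.4 in HF-SC Co, a mean 8.57-fold lower (log2 fold change -2.76, SE 0.26, adjusted p = 1.19e-06). Bmp6 was at 1.56, 2.32 and 3.80 FPKM, 4.07-fold lower than in HF-SC Co (log2 -1.69, SE 0.26, adjusted p = 1.10e-04). Both genes were lower in every GFP library than in every Co library.

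Id2 was at 128, 152 and 231 FPKM in HF-SC GFP, 2.76-fold lower than in HF-SC Co (log2 -1.50, SE 0.27, adjusted p = 4.20e-04). Id3 was at 265, 325 and 372 FPKM, 2.22-fold lower (log2 -1.15, SE 0.26, adjusted p = 0.00249). Id1 was at 158, 170 and 238 FPKM against 243 to 317 in HF-SC Co, without overlap, and did not pass (log2 -0.55, SE 0.21, adjusted p = 0.0432). The 3 Id genes therefore stood below every HF-SC Co library in all 3 mice, with changes of unequal size.

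Of the ligands, Bmp2 was at 4.40, 7.74 and 10.3 FPKM in HF-SC GFP against 16.5 to 18.9 in HF-SC Co, without overlap (log2 -1.18, SE 0.37, adjusted p = 0.0197), and it passed with the mouse as a random block (adjusted p = 0.00453). Bmp4 was at 0.966, 1.68 and 1.75 FPKM against 1.71 to 2.28 (log2 -0.28, SE 0.32, adjusted p = 0.513). Fst was at 81.2, 88.8 and 105 FPKM against 124 to 160 (log2 -0.56, SE 0.25, adjusted p = 0.0878). Smad7 was at 3.28, 6.40 and 7.35 against 7.74 to 9.12 (adjusted p = 0.15), and Bmpr1a, at 53.2, 65.2 and 91.8 against 53.9 to 72.5, had the only positive estimate of the 10 (log2 0.15, 95% interval -0.34 to 0.64, adjusted p = 0.631).

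In the stem cells of the same skin that kept the Tomato reporter (HF-SC Tom), whose Jun and Junb levels lay between those of Co and GFP, the same 4 genes fell, Bmp2 and Fst fell as well, and Bmp4 was higher than in HF-SC Co. The counts were 6 of 10 lower, against 13.9% of all genes tested, and 1 of 10 higher, against 15.7%. The median log2 fold change of the 10 genes was -0.99, and that of all genes tested was -0.04. Both fractions were compared with the same HF-SC Co libraries. Nog was at 2.93, 3.82 and 6.66 FPKM in HF-SC Tom, 5.97-fold lower than in HF-SC Co (log2 -2.36, SE 0.26, adjusted p = 4.35e-06). Bmp6 was at 0.928, 1.56 and 2.94 FPKM, 5.75-fold lower (log2 -2.04, SE 0.26, adjusted p = 1.45e-05). Nog and Bmp6 were again below every Co library.

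Id2 was at 152, 169 and 125 FPKM in HF-SC Tom, 3.16-fold lower than in HF-SC Co (log2 -1.66, SE 0.27, adjusted p = 1.39e-04). Id3 was at 362, 431 and 301 FPKM, 1.95-fold lower (log2 -0.97, SE 0.26, adjusted p = 0.00684). Id1 was at 159, 184 and 178 FPKM, 1.58-fold lower in mean, and did not pass (log2 -0.65, SE 0.21, adjusted p = 0.0182). As in the mutant fraction, the order of the 3 changes was Id2, Id3 and Id1. Bmp2 was at 3.64, 5.21 and 11.7 FPKM, 2.53-fold lower (log2 -1.36, SE 0.37, adjusted p = 0.00798), and Fst was at 43.2, 62.1 and 111 FPKM, 1.89-fold lower (log2 -1.0, SE 0.25, adjusted p = 0.00451). Bmpr1a, at 35.9, 42.2 and 49.0 FPKM, and Smad7, at 4.10, 4.68 and 7.97, did not pass (adjusted p = 0.0715 and 0.135).

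**Figure D2:**
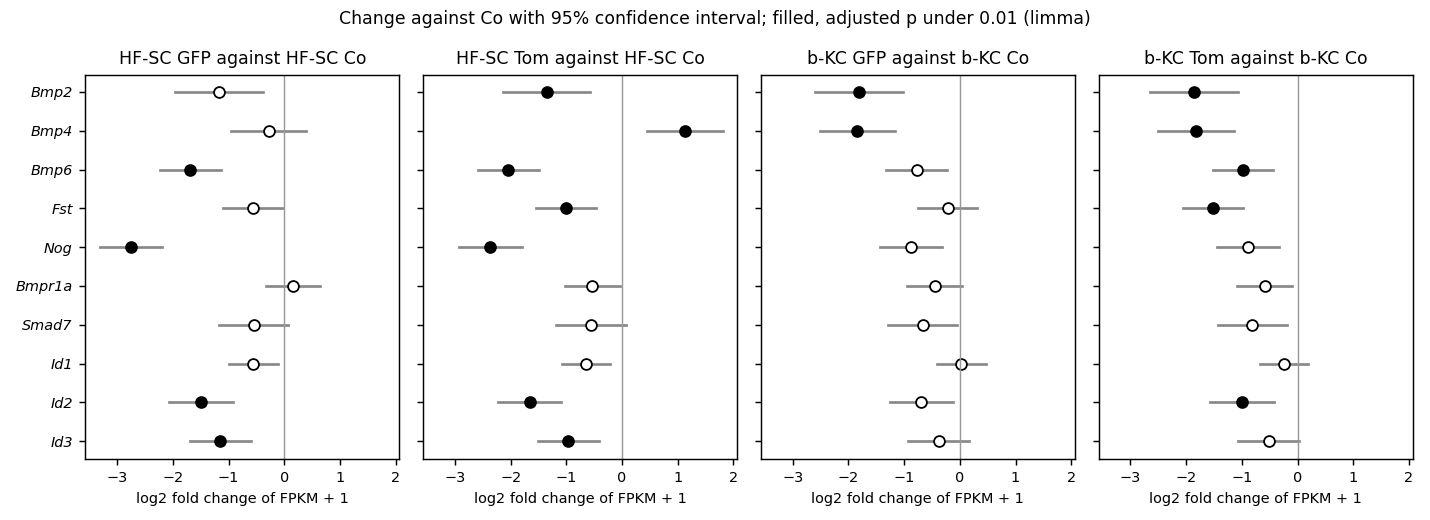
Points give the log2 fold change of FPKM + 1 of each gene in the 4 DKO* populations against Co of the same cell type, lines the 95% confidence interval, and filled points an adjusted p under 0.01 in limma. Nog lay at -2.76 and -2.36 in the HF-SC fractions, Bmp2 and Bmp4 lay between -1.81 and -1.85 in the b-KC fractions, and Bmp4 in HF-SC Tom was the 1 filled point above 0.

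Which genes passed in the stem cells changed when a mouse was left out, and each such fit also had fewer libraries. Mouse 817 gave the DKO* library nearest to the Co mean in 32 of the 40 combinations of gene and population. Without it 8 of 10 genes passed in HF-SC GFP and 8 of 10 in HF-SC Tom. These counts, and those below with a mouse left out, are not set beside the share of all genes in the same setting. They are therefore not read as particular to these genes. In mutant HF-SCs, 3 genes passed without mouse 810, 815 or 828, since Id3 was lost. In HF-SC Tom, 3 genes passed without mouse 810, 815, 825 or 828 and 4 without mouse 814. Bmp2 and Fst were lost there without any of these 5 mice, and Id3 without mouse 810, 815, 817, 825 or 828 (adjusted p over all settings up to 0.0641, 0.0552 and 0.0377). Over all settings the log2 changes of these 3 genes stayed below 0. They ran from -1.77 to -1.04 for Bmp2, -1.37 to -0.70 for Fst and -1.10 to -0.84 for Id3. With no filter on low genes, Bmp2, Bmp4 and Id3 did not pass in HF-SC Tom (adjusted p = 0.015, 0.0185 and 0.0117). Nog, Bmp6 and Id2 passed in both fractions with any 1 mouse left out, with adjusted p no larger than 0.00907.

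Bmp4 in HF-SC Tom was at 5.98, 7.48 and 3.62 FPKM, 2.88 times the HF-SC Co mean and above every HF-SC Co library (log2 1.13, SE 0.32, adjusted p = 0.00979). This call sat at the threshold: over 14 other settings the adjusted p ran from 5.18e-05 to 0.0876, it was lost with the mouse as a random block (adjusted p = 0.0116) and without mouse 810, 814, 815, 825 or 828. The summed endothelial markers were at 2817, 2899 and 971 FPKM in the same 3 libraries, so the library with the least Bmp4 also had the least endothelial signal, and their part in the difference was not tested. In b-KCs, where Bmp4 reached 14.2 FPKM, the endothelial sum stayed at 13.9 or below.

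Between the 2 fractions of the same DKO* mice, the stem cells differed in Bmp4 only by the criterion used here: it was lower in the GFP than in the Tom fraction in 3 of 3 mice, 3.88-fold in mean (log2 -1.41, SE 0.32, adjusted p = 0.00936). This was 1 of 10 genes lower, against 4.09% of all genes tested, and 0 of 10 higher, against 0.902%. At an unadjusted p under 0.05, 2 of 10 genes differed, Bmp4 and Bmpr1a, the same share as the 20% of all genes tested. The Bmp4 call was lost with the mouse as a fixed block (adjusted p = 0.0362), with no filter on low genes (adjusted p = 0.0172) and without mouse 814 or 815 (adjusted p up to 0.196). It was also lost without Co mouse 810, 825 or 828 (adjusted p = 0.0176, 0.0206 and 0.0202). Those 3 mice gave no library to this comparison, so the log2 change stayed at -1.41 and only the shared estimate of the spread changed. Bmpr1a was higher in GFP in 3 of 3 mice, by 1.48, 1.55 and 1.87 times, and did not pass (log2 0.69, SE 0.23, adjusted p = 0.0838). Nog was lower in GFP than in Tom in 3 of 3 mice (log2 -0.40, 95% interval -0.95 to 0.16, adjusted p = 0.446). The intervals for Id1, Id2 and Id3 ran from -0.34 to 0.53, -0.41 to 0.73 and -0.73 to 0.37, so differences of those sizes between the GFP and Tom stem cells were within the error of these 3 mice.

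In mutant basal keratinocytes (b-KC GFP), the ligands Bmp2 and Bmp4 fell, and none of the Id genes passed. The count was 2 of 10 genes lower, against 12.0% of all genes tested, and 0 of 10 higher, against 12.5%. The median log2 fold change of the 10 genes was -0.68, and that of all genes tested was -0.03. Bmp2 was at 3.90, 4.30 and 8.48 FPKM against 19.8 to 23.0 in b-KC Co, 3.79-fold lower (log2 -1.81, SE 0.37, adjusted p = 0.00153). Bmp4 was at 1.55, 2.33 and 4.77 FPKM against 9.45 to 14.2, 4.25-fold lower (log2 -1.84, SE 0.32, adjusted p = 4.99e-04). Neither group overlapped with Co, and in both genes mouse 817 had the highest of the 3 values.

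Both calls were lost without mouse 815 (adjusted p up to 0.0282), Bmp2 also without mouse 828, which left 1 of 10 genes, and 7 of 10 genes passed without mouse 817. Id1 was at 190, 217 and 208 FPKM against 173 to 222 in b-KC Co (log2 0.03, 95% interval -0.41 to 0.47, adjusted p = 0.927). Id2 was at 18.9, 31.3 and 33.6 against 39.7 to 54.7 (log2 -0.69, SE 0.27, adjusted p = 0.0489), and Id3 was at 169, 262 and 275 against 279 to 322 (adjusted p = 0.25). Id2 and Id3 were thus below every Co library without passing, and Id1 lay within the Co range.

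Nog and Bmp6 were low in b-KCs, and in some DKO* b-KC libraries they rested on few reads. Nog was at 0.0789, 0.234 and 0.612 FPKM in b-KC GFP, about 3.0, 9.01 and 25.0 reads at the implied depth, against 1.20 to 1.48 FPKM in b-KC Co (log2 -0.88, SE 0.26, adjusted p = 0.0149). With the mouse as a random block it passed in b-KC GFP (adjusted p = 0.00615) and in b-KC Tom (adjusted p = 0.00495), and it also passed in both when only the groups compared were fitted or without mouse 817. With a pseudocount of 0.1 the Nog changes were -2.07 in b-KC GFP (adjusted p = 0.00398) and -2.05 in b-KC Tom (adjusted p = 0.0033). Bmp6 was at 0.210, 0.290 and 0.332 FPKM in b-KC GFP, 4.29-fold lower in mean than in b-KC Co (adjusted p = 0.0253). With a pseudocount of 0.1 the Bmp6 change in b-KC GFP was -1.77 and passed (adjusted p = 0.00364), as it did when only the groups compared were fitted or without mouse 817. At such levels the log2(FPKM + 1) scale understates a change in FPKM.

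Fst was at 22.8, 22.2 and 16.3 FPKM in b-KC GFP against 21.8 to 25.1 in b-KC Co (log2 -0.22, 95% interval -0.75 to 0.31, adjusted p = 0.505). Bmpr1a was at 25.2, 26.6 and 41.7 FPKM and Smad7 at 1.45, 1.78 and 4.07, and neither passed (adjusted p = 0.125 and 0.0794).

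In the basal keratinocytes that kept the Tomato reporter (b-KC Tom), Bmp2 and Bmp4 fell by about as much, and Fst, Id2 and Bmp6 fell too. The count was 5 of 10 genes lower, against 15.3% of all genes tested, and 0 of 10 higher, against 15.4%. The median log2 fold change of the 10 genes was -0.93, and that of all genes tested was -0.02. Bmp2 was at 3.03, 4.98 and 8.44 FPKM, 3.84-fold lower than in b-KC Co (log2 -1.85, SE 0.37, adjusted p = 9.76e-04), and Bmp4 was at 1.66, 2.21 and 4.92 FPKM, 4.18-fold lower (log2 -1.82, SE 0.32, adjusted p = 3.48e-04). Fst was at 8.38, 6.16 and 8.56 FPKM, 3.08-fold lower (log2 -1.52, SE 0.25, adjusted p = 2.17e-04). All 3 genes were below every b-KC Co library.

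Id2 was at 14.6, 23.8 and 29.3 FPKM in b-KC Tom, 1.99-fold lower (log2 -1.0, SE 0.27, adjusted p = 0.00676), and Bmp6 was at 0.0587, 0.0421 and 0.231 FPKM, about 2.77 to 15.3 reads (log2 -0.98, SE 0.26, adjusted p = 0.00611). For Bmp6 the log2 change was -2.71 with a pseudocount of 0.1 (adjusted p = 1.13e-04), and with no filter on low genes the Bmp6 and Id2 calls were lost (adjusted p = 0.0123 and 0.0131). The Id2 and Bmp6 calls were both lost without mouse 810, 814, 815, 825 or 828, which left 2 or 3 genes past the criterion, and without mouse 817 there were 7. Bmp2 was lost without mouse 815 (adjusted p = 0.0139). Id1, at 119, 192 and 214 FPKM, and Id3, at 132, 274 and 251, did not pass (adjusted p = 0.347 and 0.111), and in both genes mouse 814 was far below the other two. Nog was at 0.0736, 0.396 and 0.421 FPKM (adjusted p = 0.0126), Smad7 at 1.39, 1.78 and 2.86 (adjusted p = 0.0344) and Bmpr1a at 34.5, 21.7 and 28.0 (adjusted p = 0.0471).

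Fst was the gene with the clearest difference between the keratinocyte fractions. It was higher in b-KC GFP than in b-KC Tom in 3 of 3 mice, by 2.72, 3.61 and 1.90 times, with no overlap (log2 1.30, SE 0.25, adjusted p = 0.0152). It passed with the mouse as a random block (adjusted p = 0.00431) and without mouse 817 (adjusted p = 2.19e-04), but not with a fixed block for the mouse (adjusted p = 0.0259), and over the 15 alternatives the adjusted p ran up to 0.399, without mouse 815. In limma without the block, 0 of 10 genes passed in either direction, against 0.361% of all genes tested that were higher and 0.125% that were lower, and at an unadjusted p under 0.05 the count was 1 of 10, which was Fst, against 11.5% of all genes. For Bmp2 and Bmp4 the fractions had nearly the same means, 5.56 and 5.48 FPKM and 2.88 and 2.93 FPKM, with intervals of -0.75 to 0.83 and -0.70 to 0.66 on the log2 scale. Id2 and Bmp6 were higher in GFP in 3 of 3 mice without passing (adjusted p = 0.828 and 0.919).

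**Figure D3:**
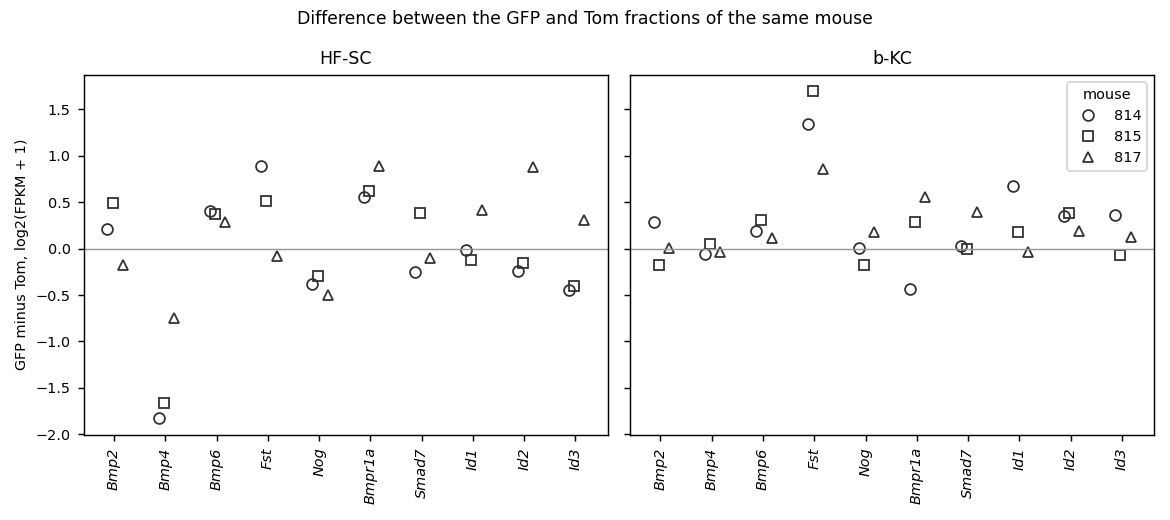
Each point is the difference between the GFP and the Tom library of 1 DKO* mouse on the log2(FPKM + 1) scale, for HF-SCs on the left and b-KCs on the right. Bmp4 lay below 0 in 3 of 3 mice in HF-SCs only, Fst lay above 0 in 3 of 3 mice in b-KCs, and the Id genes scattered on both sides of 0 in HF-SCs.

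Whether a change from Co differed between the cell types was tested as an interaction. Nog fell more in HF-SC GFP than in b-KC GFP on the log2(FPKM + 1) scale (difference of log2 changes -1.88, SE 0.37, adjusted p = 0.0039). This was 1 of 10 genes with a lower change in HF-SCs, against 1.89% of all genes tested, and 0 of 10 with a higher one, against 3.32%. The result belonged to the scale: with a pseudocount of 0.1 in place of 1 the Nog difference was -1.02 (adjusted p = 0.352), and the ratios of mean FPKM were 8.57-fold in HF-SCs and 4.46-fold in b-KCs. It was also lost without mouse 810, 814, 815, 825 or 828. For Tom, Bmp4 moved in opposite directions, up in HF-SCs and down in b-KCs (difference 2.95, SE 0.45, adjusted p = 4.28e-04), which was 1 of 10 genes, against 5.93% of all genes tested, with 0 of 10 the other way, against 2.12%. The Bmp4 interaction was lost without mouse 815 (adjusted p = 0.015). With the mouse as a random block, Nog passed in the Tom interaction as well (log2 -1.48, adjusted p = 9.75e-04, against 0.0127 without the block), but this too belonged to the scale, since with a pseudocount of 0.1 the difference was -0.55 (adjusted p = 0.671). Without mouse 817, 2 and 3 of 10 genes passed in the GFP and the Tom interaction.

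Over the 18 libraries, the levels of Nog, Bmp6 and Id2 ran together on the log2(FPKM + 1) scale, with Pearson's r of 0.96 between Bmp6 and Nog and 0.94 between Id2 and Nog, whereas Bmp4 and Fst had the lowest r, -0.28. These values describe 18 libraries from 6 mice, which share cell types, genotypes and animals. The genes whose pattern was most like that of Nog were Nppc (r = 0.99) and Dmd (r = 0.98), like that of Bmp6 Ttll10 (r = 0.99), like that of Id2 Dtx3 (r = 0.98), and like that of Fst Wif1, a secreted Wnt inhibitor, and Sox9, a transcription factor of bulge cells (both r = 0.98). For Bmp2 the nearest gene was Stim1 (r = 0.98), for Bmp4 Man1c1 (r = 0.97), for Smad7 Crim1 (r = 0.97), for Bmpr1a Suco (r = 0.97) and for Id3 Palmd (r = 0.94). Id1 had the loosest match, Nxn at r = 0.82.

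The highest group mean was that of HF-SC Co for Bmp6, Id1, Id2, Id3, Smad7, Fst and Nog, and for each of these 7 genes no library of the group ranked second reached the lowest HF-SC Co library. For Smad7 the HF-SC Tom library of mouse 817, at 7.97 FPKM, was above the lowest HF-SC Co library, at 7.74. Bmp2 and Bmp4 were highest in b-KC Co, at 21.1 ± 1.66 and 12.2 ± 2.47 FPKM (SD, n = 3), also without overlap with the next group. Bmpr1a was highest in HF-SC GFP, at 70.1 ± 19.8 FPKM, where it overlapped with HF-SC Co at 61.8 ± 9.59. The b-KC GFP and b-KC Tom libraries overlapped for 9 of the 10 genes, and the exception was Fst. Shares of all genes tested with or without such overlap were not computed, so these counts describe levels only.

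Beyond these 10 genes, the other secreted BMP antagonists were the part of the pathway with the most calls in the stem cells. Of 11 listed antagonists, 7 were tested. Of these, 6 were lower in mutant than in Co stem cells and none was higher, while 12.3% of all genes tested were lower. The median of the 7 was -1.30 on the log2 scale. Bmper, 1 of the 6, entered the tested genes only because it was above 1 FPKM in all 3 HF-SC Co libraries. Its fall from Co was therefore favoured by the filter, and it is no support for the count or for the median of the 7. In the same comparison 9 of 16 endothelial and 3 of 7 bulge markers were lower, and their part in the antagonist counts was not tested. Fstl1 had group means of 6.55 FPKM in the GFP, 16.1 in the Co and 44.3 in the Tom stem cells, the same order as the endothelial sum. Grem1 (gremlin 1) was at 86.6 to 99.8 FPKM in HF-SC Co, 6.86 to 11.6 in HF-SC GFP and 8.15 to 10.6 in HF-SC Tom (log2 -3.27 and -3.18, adjusted p = 2.44e-09 and 2.76e-09). Sostdc1 (sclerostin domain containing 1, a BMP and Wnt antagonist) was at 323 to 376 FPKM in HF-SC Co, 78.4 to 101 in HF-SC GFP and 61.9 to 127 in HF-SC Tom (log2 -1.99 and -1.88). Nbl1 was lower in both as well (log2 -1.62 and -1.86). The same 3 genes and 2 others of the 7 were higher in HF-SC Co than in b-KC Co, against 18.7% of all genes tested, Grem1 by 6.03 on the log2 scale. Grem1, Fstl1 and Bmper were below 1 FPKM in every b-KC library. They entered the tested genes through the HF-SC libraries, so a higher level there was favoured by the filter. In HF-SC Tom, 5 of 7 antagonists were lower, against 13.9% of all genes, and 1, Fstl1, was higher, against 15.7%. A fall of Bmper, at 0.370 to 0.988 FPKM there, was favoured by the filter in this comparison as well. In b-KCs, 2 of 7 were lower in GFP (Twsg1 at -0.79 and Fstl3 at -0.66), against 12.0% of all genes, and 3 of 7 in Tom (Sostdc1 at -1.05, Twsg1 at -0.84 and Nbl1 at -0.76), against 15.3%.

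Of 9 further ligands, 3 were tested. Bmp7 was higher in HF-SC GFP, at 25.3, 28.9 and 25.7 FPKM, than in HF-SC Co, at 13.4, 16.7 and 15.2 (log2 0.78, adjusted p = 0.00612), and higher than in HF-SC Tom, at 8.85, 11.2 and 20.5 (log2 1.01, adjusted p = 0.00367). Gdf10, a ligand of the TGF-beta family, was at 2.55 to 5.42 FPKM in HF-SC Co and below 1 FPKM in every HF-SC GFP and HF-SC Tom library, and it is described with no test, since it entered the tested genes only through the HF-SC Co libraries. Bmp3, a ligand that opposes other BMPs, was at 7.17 to 9.85 FPKM in b-KC Co and fell in b-KC GFP to 0.585 to 1.95 and in b-KC Tom to 0.684 to 2.87 (log2 -2.22 and -2.03, adjusted p = 2.03e-04 and 2.50e-04), along with Bmp2 and Bmp4. Of these 3 and the 3 ligands above, 1 of 6, Bmp7, was higher in mutant than in Co stem cells, near the 13.0% of all genes tested, and the share higher in GFP than in Tom was 0.902%. The shares of all genes that were lower in b-KC GFP and b-KC Tom, as Bmp3 was, were 12.0% and 15.3%.

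Among 9 tested receptors and co-receptors, 2 were lower in HF-SC GFP (Acvrl1 at -1.57 and Acvr2b at -0.73), against 12.3% of all genes tested. In HF-SC Tom 3 were lower (Acvr2a at -0.89, Acvr2b at -0.88 and Rgmb at -0.71) against 13.9% of all genes, and 2 were higher, Eng at 3.68 and Acvrl1 at 0.95, against 15.7%. Eng (endoglin) was at 85.9, 95.7 and 33.9 FPKM in HF-SC Tom and 2.91 to 5.21 in HF-SC Co. Eng and Acvrl1 encode a co-receptor and a receptor of endothelial cells. Eng, Acvrl1 and Fstl1, which was at 55.9, 56.9 and 20.2 FPKM, had their lowest HF-SC Tom value in mouse 817, the library with the lowest endothelial sum, and all 16 endothelial markers passed as higher in HF-SC Tom. Where Acvrl1 was lower, in the GFP fraction, 9 of the 16 endothelial markers were lower than in Co as well (median log2 -1.61). The part of endothelial RNA in these differences was not tested. In b-KCs Rgmb (-1.26 in GFP and -1.37 in Tom) and Tgfbr3 (-1.52 and -1.68) were lower in both fractions, 2 of 9 genes in GFP and, with Acvr2b, 3 of 9 in Tom, against 12.0% and 15.3% of all genes.

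**Figure D4:**
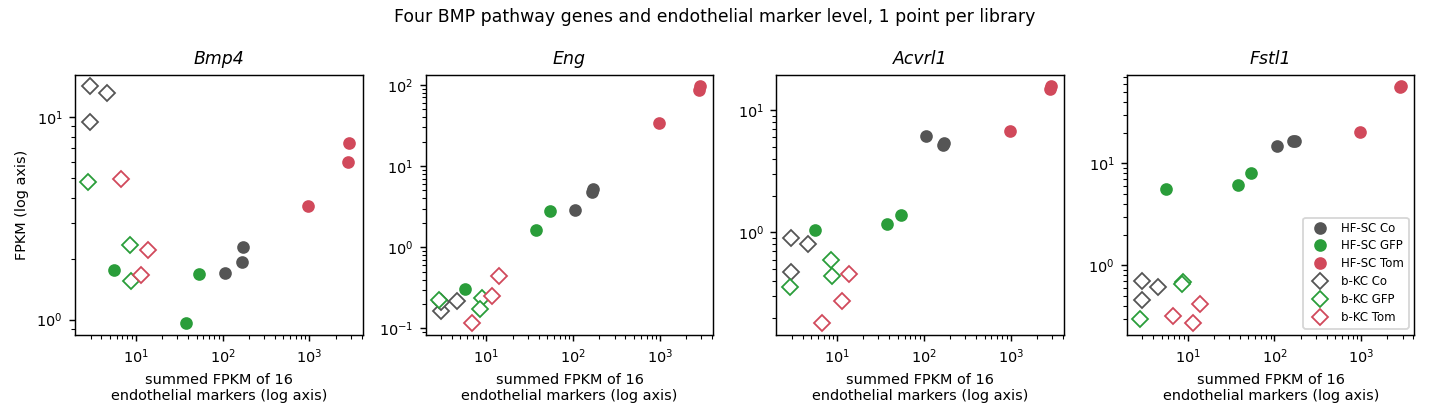
Each point is 1 library, with the summed FPKM of 16 endothelial marker genes on the horizontal log axis and the FPKM of Bmp4, Eng, Acvrl1 or Fstl1 on the vertical log axis; filled circles are HF-SCs and open diamonds b-KCs. The 3 HF-SC Tom libraries, at sums of 971 to 2899, held the highest Eng, Acvrl1 and Fstl1 levels, whereas Bmp4 was highest in the b-KC Co libraries, at sums of 2.96 to 4.60.

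Of 10 Smads and their regulators, 2 were called lower in HF-SC GFP and the same 2 in HF-SC Tom, near the 12.3% and 13.9% of all genes tested. They were Bambi, a decoy receptor (log2 -1.17 and -0.79), and Smad9, a BMP-activated Smad. Smad9 entered the tested genes only because it was above 1 FPKM in all 3 HF-SC Co libraries, so its calls were favoured by the filter. It is described by its levels, 1.80 to 3.79 FPKM in HF-SC Co, 0.624 to 1.38 in HF-SC GFP and 0.382 to 0.749 in HF-SC Tom. Smad1, the most abundant BMP-activated Smad here, had group means of 41.0 to 49.1 FPKM and is named after its values were seen, since it did not pass in any of these comparisons. In b-KCs 1 of 10 passed in each fraction, Smurf2 (-0.58 and -0.78), near the 12.0% and 15.3% of all genes. Of 7 further target genes, 0 passed in HF-SC GFP, 3 were lower in HF-SC Tom (Id4 at -1.78, Msx2 at -1.57 and Dlx3 at -1.38), 2 in b-KC GFP (Dlx3 at -1.50 and Gata3 at -1.09) and 4 in b-KC Tom (Id4 at -2.31, Dlx3 at -1.76, Msx2 at -1.56 and Gata3 at -0.99). The shares of all genes that were lower in these 4 comparisons were 12.3%, 13.9%, 12.0% and 15.3%.

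Of 8 genes known to hold bulge cells in quiescence, all 8 were higher in HF-SC Co than in b-KC Co, against 18.7% of all genes tested. In mutant stem cells 7 of 8 were lower than in Co, against 12.3% (median log2 -0.97), and in HF-SC Tom 6 of 8, against 13.9% (median -1.09). Bulge markers moved with them: 3 of 7 were lower in HF-SC GFP and 4 of 7 in HF-SC Tom, and this list shares Lhx2 and Nfatc1 with the 8 genes. It also includes Krt15, which was listed at 0 in the HF-SC Co library of mouse 828 and so gives no usable change from HF-SC Co. Cd34, the gene of the sorting marker, was at 640 to 889 FPKM in HF-SC Co, 161 to 228 in HF-SC GFP and 260 to 319 in HF-SC Tom (log2 -1.89 and -1.35, adjusted p = 5.87e-04 and 0.00575), and the part of the bulge markers in these differences and in those of the 10 BMP genes was not tested. Lhx2, a transcription factor of the bulge, was at 165, 102 and 109 FPKM in HF-SC Co, at 32.3, 47.9 and 35.9 in HF-SC GFP and at 17.6, 26.4 and 30.2 in HF-SC Tom (log2 -1.66 and -2.29, adjusted p = 1.38e-04 and 5.10e-06). Fgf18, a growth factor of the resting follicle, was lower in both (-1.68 and -1.78), as were Tbx1 (-1.10 and -1.27) and Foxc1 (-1.01 and -1.20). In b-KCs, 2 of 8 were lower in GFP (Foxp1 and Foxc1), against 12.0% of all genes tested, and 4 of 8 in Tom, against 15.3%, while 0 and 5 of the 7 bulge markers were lower there. The 6 proliferation genes were all higher in both HF-SC fractions, against 13.0% (GFP) and 15.7% (Tom) of all genes tested, for example Ccnb1, from 6.68 to 8.84 FPKM in HF-SC Co to 65.7 to 105 in HF-SC GFP and 93.2 to 112 in HF-SC Tom (log2 3.15 and 3.53), and 4 and 5 of 6 were higher in b-KC GFP and b-KC Tom, against 12.5% and 15.4%.

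In the TGF-beta and activin branch, which follistatin also touches, 2 of 11 genes were higher in HF-SC GFP and 1 was lower, and in HF-SC Tom 3 were higher and 1 was lower. The shares of all genes tested were 13.0% higher and 12.3% lower in GFP and 15.7% and 13.9% in Tom. In b-KC GFP 2 of 11 were higher and 2 lower, against 12.5% and 12.0% of all genes, and in b-KC Tom 0 were higher and 3 lower, against 15.4% and 15.3%. Tgfb1 was at 3.40 to 4.98 FPKM in HF-SC Co, 9.90 to 15.2 in HF-SC GFP and 14.9 to 17.2 in HF-SC Tom (log2 1.38 and 1.72, adjusted p = 7.76e-05 and 7.40e-06). Inhbb, an activin subunit gene, was higher in both (0.97 and 0.62), and Tgfb2 was lower in all 4 DKO* populations (-0.60, -0.92, -1.07 and -1.40). Tgfb3 was higher in the GFP than in the Tom fraction of HF-SCs (log2 1.28, adjusted p = 0.00374), 1 of 11 genes against 0.902% of all genes.

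**Figure D5:**
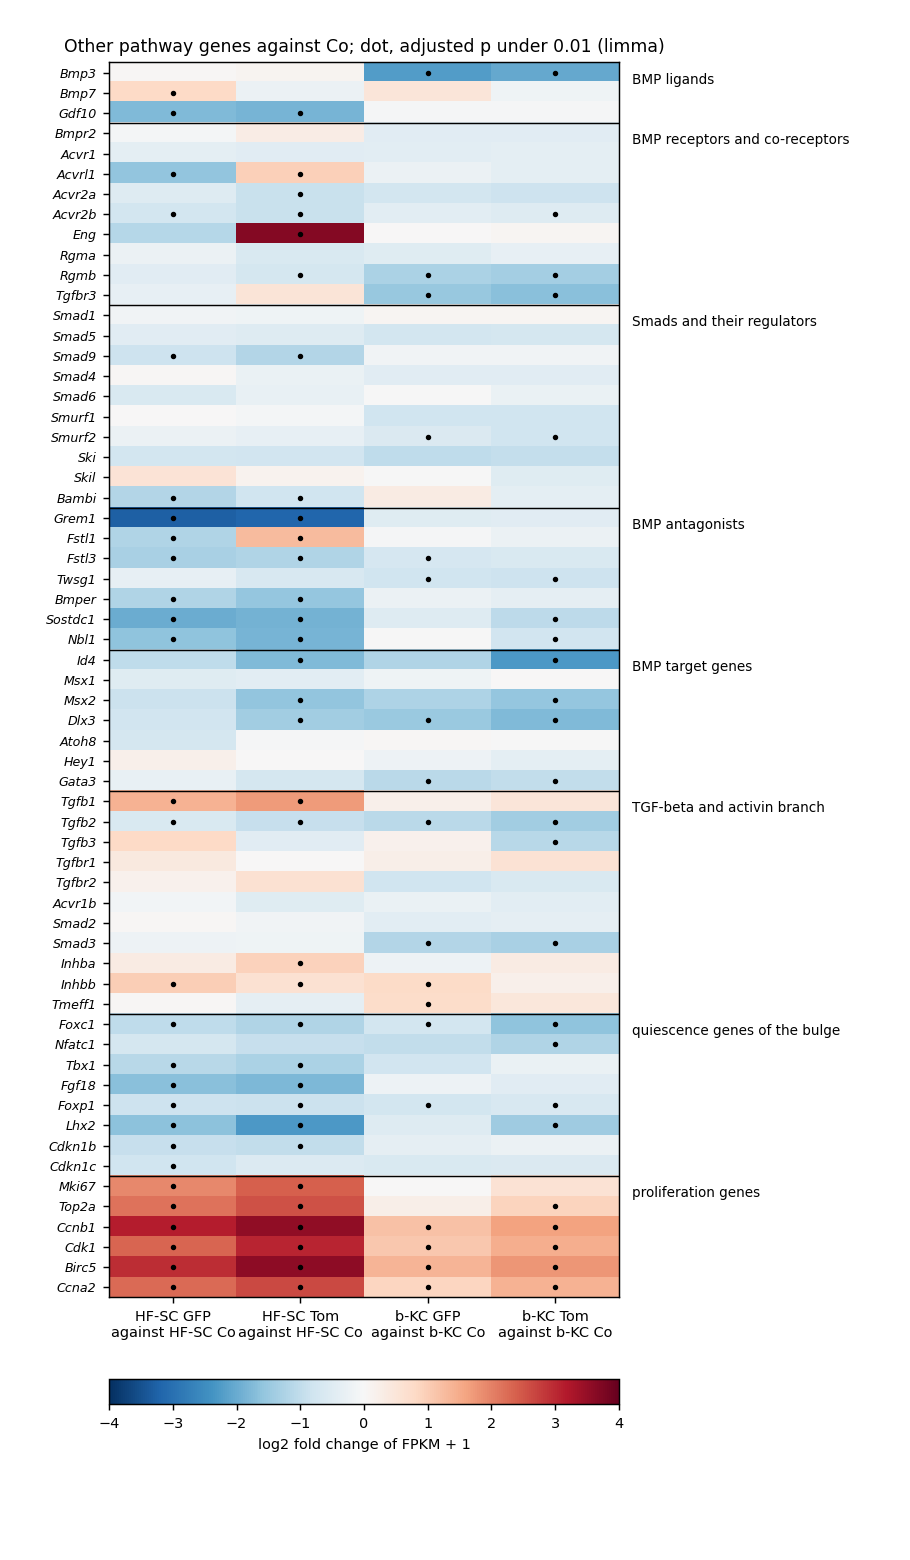
Rows are the tested genes of 8 lists around the 10 genes, columns the 4 comparisons with Co, colour the log2 fold change of FPKM + 1 from -4 to 4, and dots mark an adjusted p under 0.01 in limma. Grem1, Sostdc1 and Nbl1 were blue in both HF-SC columns (Grem1 -3.27 and -3.18), Eng was red in HF-SC Tom only (3.68), and the 6 proliferation genes were red in both HF-SC columns.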

How the data were processed

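The members and the gene lists were chosen with earlier results of these data known. RNA of sorted cells was amplified with SMART-Seq v4, made into unstranded Nextera XT libraries and sequenced on an Illumina HiSeq. The authors aligned the reads to mouse NCBI37 (mm9) with TopHat2 2.0.10 and Bowtie 1.0.0, and deposited FPKM per gene from Cufflinks 2.2.1 (versions per the submitters' processing notes). Without strand, reads of overlapping antisense genes cannot be separated.

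No counts were used. FPKM were tested as log2(FPKM + 1) in limma 3.58.1 (R 4.3.3), with 1 mean per population, 18 libraries, an eBayes trend and 12751 genes of at least 1 FPKM in at least 3 libraries. Benjamini-Hochberg adjustment was made within each comparison, and an adjusted p under 0.01 was called. A fold change on this scale understates the change of low genes. Co populations share their mice and so do DKO* populations. Deviations from the group means correlated between libraries of the same mouse at r = 0.0838 to 0.70 in 21 pairs, so fits with a replicate block were run as alternatives. Of the values of 7744 single-transcript genes, low ones lay within 0.1 of whole reads in 77.0 to 81.4%, which gave the implied depths. At these depths 3 reads are 0.114 to 0.181 FPKM for a transcript of 1 kb. In simulated data, 113, 192 and 195 of 200 changed genes were recovered at log2 changes of 1, 2 and 3 (HF-SC GFP against HF-SC Co, 12751 genes). All 10 genes, passing genes of each list (at most 5 by fold) and the nearest 3 genes by Pearson's r could be named.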

Additional observations from a re-analysis of the deposited data

Results flagged for a closer look

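For Nog and Bmp4 the change from Co differed between the 2 cell types by a test of the difference itself, on the log2(FPKM + 1) scale. The log2 change of Nog from Co to GFP was 1.88 lower in HF-SCs than in b-KCs (difference -1.88, limma adjusted p = 0.0039), with values of 2.0 to 4.40 FPKM in HF-SC GFP and 0.0789 to 0.612 FPKM in b-KC GFP, the lowest of which rests on about 3.0 reads. With a pseudocount of 0.1 the Nog difference was -1.02 (adjusted p = 0.352), and the call was also lost without mouse 810, 814, 815, 825 or 828 and where a log2 change of at least 2.0 was also asked for. The log2 change of Bmp4 from Co to Tom was 2.95 higher in HF-SCs than in b-KCs (limma adjusted p = 4.28e-04), and every HF-SC Tom library was above every HF-SC Co library while every b-KC Tom library was below every b-KC Co library. The Bmp4 call was lost without mouse 815 (adjusted p = 0.015). The endothelial marker sum was 971 to 2899 FPKM in HF-SC Tom and 6.74 to 13.9 FPKM in b-KC Tom, and its part in the Bmp4 difference was not tested.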

How the results depend on the processing

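Over 14 or 15 alternatives per comparison, 1138 values of single genes kept their direction and their side of the threshold, 50 gained a call, 85 lost it and 17 changed sign. Rescaling the libraries by median ratios and leaving out the eBayes trend changed no count of genes past the threshold. Requiring a log2 fold change of 2 as well left 1 of 10 genes for HF-SC GFP and 2 for HF-SC Tom against Co, and 0 for both b-KC fractions against Co, for HF-SC GFP against Tom and for the GFP interaction. An adjusted p under 0.05 gave 5 in b-KC GFP, 8 in b-KC Tom, 1 in b-KC GFP against Tom and 2 in each interaction. Without the filter 4 passed for HF-SC Tom, 3 for b-KC Tom and 0 for HF-SC GFP against Tom. With only the groups compared 3 passed for HF-SC Tom, 4 for b-KC GFP and 0 for HF-SC GFP against Tom. A pseudocount of 0.1 gave 4 in b-KC GFP, 1 in b-KC GFP against Tom and 0 in the GFP interaction. The random replicate block gave 1 in b-KC GFP against Tom and 2 in the Tom interaction, and the fixed block 0 in HF-SC GFP against Tom; no other call changed with the block than those named in the report. With each mouse left out in turn, 5 to 7 genes passed between the Co populations, 3 to 8 for each HF-SC fraction against Co, 0 to 7 for b-KC GFP, 2 to 7 for b-KC Tom, 0 to 1 in each comparison of GFP with Tom, 0 to 2 in the GFP interaction and 0 to 3 in the Tom interaction.

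The 17 changes of sign were of values that did not pass, and 15 of them came with 1 mouse left out. With each mouse left out in turn, the log2 change against Co ran from -0.059 to 0.33 for Bmpr1a in HF-SC GFP, from -0.076 to 0.10 for Id1 in b-KC GFP and from -0.41 to 0.012 for Id1 in b-KC Tom. For HF-SC GFP against Tom it ran from -0.066 to 0.20 for Id1, from -0.20 to 0.36 for Id2 and from -0.18 to 0.14 for Smad7. For b-KC GFP against Tom it ran from -0.084 to 0.14 for Bmp2, from -0.049 to 0.0069 for Bmp4, from -0.076 to 0.42 for Bmpr1a and from -0.085 to 0.095 for Nog. The GFP interaction ran from -0.10 to 0.25 for Smad7 and the Tom interaction from -0.11 to 0.32 for Bmpr1a. With a pseudocount of 0.1, Nog was at -0.025 for b-KC GFP against Tom and Bmp6 at 0.16 in the Tom interaction. The cause was not tested. Each population has 3 mice, and in some DKO* b-KC libraries Nog and Bmp6 rest on few reads.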
